A study of Rattus norvegicus with 14 samples.

Results

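The livers described here came from male rats on a diet sufficient in vitamin A. They are the 7 arrays whose titles name the sufficient diet, of 14 in the series; the other 7, from the deficient diet, were not used. The rats were 74 days old and had been on the diet for 53 days, and the labels give no strain, genotype or agent beyond the diet. Total liver RNA, purified on kit columns, was turned into hybridisation targets from about 10 µg of RNA for 4 arrays (numbers 1 to 4) and about 2 µg for 3 arrays (numbers 1, 2 and 4). Arrays with the same number were averaged to 4 values, called livers 1 to 4 below; the labels do not say outright that such arrays share a liver. Where nothing says that samples came from separate animals, p-values do not measure a spread between animals. Those for differences between livers weigh the livers against the disagreement of same-numbered arrays. Each array is a 1-colour Affymetrix rat chip that reports an intensity, in linear units, for each probe set, a group of short probes against 1 transcript.

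The liver is built mainly of hepatocytes, which make most of the proteins of blood plasma and carry the enzymes that turn ammonia into urea, release glucose, make bile acids and oxidise foreign compounds. It is also the main store of vitamin A: stellate cells hold it as retinyl esters, and hepatocytes send retinol into the blood bound to the carrier RBP4. In the rat many hepatic enzymes differ between the sexes, following the pattern of growth hormone release. In whole tissue, fewer cells of a type and less RNA per cell cannot be told apart.

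The chip held 8799 probe sets, of which 59 were controls and 8740 were kept. Of these, 7006 carried 1 gene symbol, 308 several and 1426 none, and the 7006 named 4736 genes, each represented by its brightest probe set. All 7 arrays had been scaled alike, with trimmed means from 1001.87 to 1002.05. The ratio of the 3′ to the 5′ control signal was 1.485 to 1.983 for Gapdh and 1.225 to 1.702 for actin. The array of liver 3 stood apart: its 100 brightest probe sets took 28.65% of all intensity, against 30.67% to 33.08% on the other 6. Liver 3 has this 1 array only, so liver and array cannot be told apart. Calls described below that were lost without it are named as such.

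Signal was concentrated in few genes. The 10 brightest genes held 9.1% of the summed intensity of the 4736 genes, the 30 brightest 20.71%, the 100 brightest 40.46% and the 500 brightest 76.14%. Ordered from the top, 156 genes made up 50 percent of the sum. By liver, the 100 brightest took 40.57%, 41.53%, 38.01% and 41.57% (livers 1 to 4), a mean of 40.42% ± 1.67 (SD, n = 4). Liver 3 had the lowest share, and the other 3 lay within 1 percentage point of each other. Levels fell from 88819 at rank 1 to 36067 at rank 30, 16214 at rank 100, 3069 at rank 500 and 1111 at rank 1000. As a measure of signal without a target, 15 control probe sets that read the opposite strand were used; the brightest of them lay between 216.3 and 418.3, depending on the array. Of the 4736 genes, 1667 (35.2%) exceeded the brightest such control on all 7 arrays and 2050 (43.3%) exceeded it on none. An intensity rank is not a rank of molecule number, since probe sets bind with different strength and are not scaled by transcript length. Ranks below therefore order the signals of probe sets and nothing more.

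**Figure D1:**
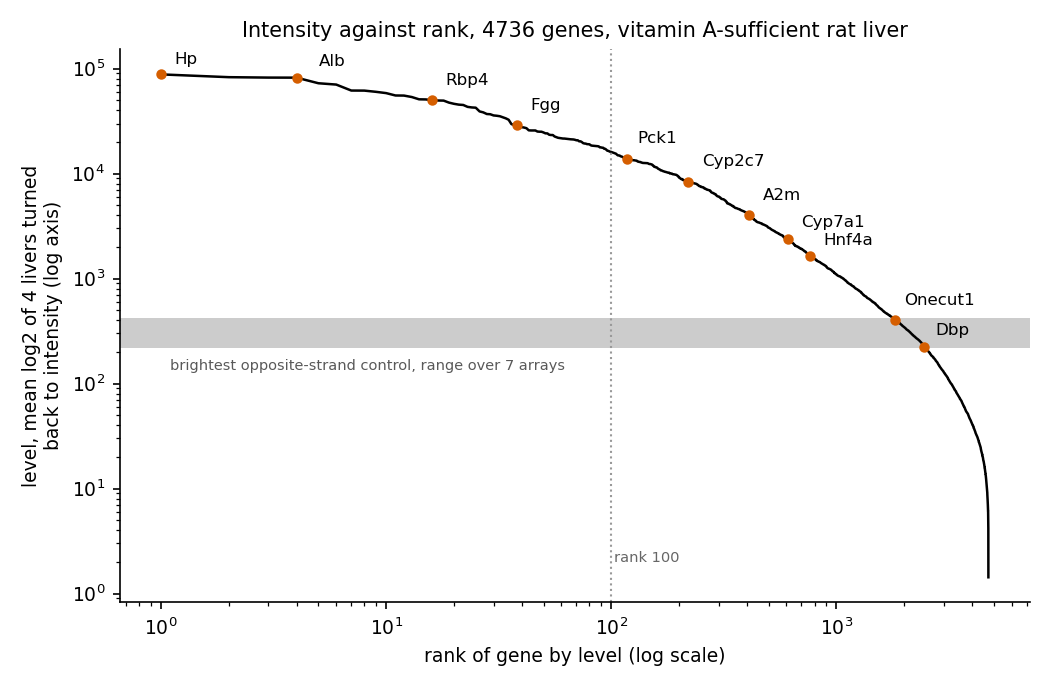
Level of each of 4736 genes (mean log2 of 4 livers turned back to intensity, log axis) against its rank (log axis), with 11 genes marked; the grey band spans the brightest opposite-strand control on the 7 arrays, 216.3 to 418.3. The curve is nearly flat over the brightest genes and drops steeply past rank 1000, where the level was 1111.

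Secreted plasma proteins led the ranking. They filled 9 of the first 10 places, 23 of the first 30 and 36 of the first 100, counted over 75 measured genes of 6 lists (carriers, protease inhibitors, acute phase proteins, apolipoproteins, coagulation and complement; some genes are in more than 1 list). These 75 genes held 23.69% of the summed intensity. Of the 100 brightest probe sets kept, 57 carried 1 symbol, 16 several and 27 none. Only those with 1 symbol are in this ranking of genes, and an unnamed probe set was brighter than all of them. The brightest named gene was Hp, haptoglobin, which binds free haemoglobin, at 88819 ± 11994 (SD, n = 4 here and for all means below). It stood first in each liver, at 89551, 100210, 72085 and 93432 in livers 1 to 4. Apoe, the ligand that clears lipoprotein remnants, followed at 83535 ± 11899. Serpina1, the inhibitor of neutrophil elastase, was at 82697 ± 11037, and Alb, serum albumin, at 82338 ± 8324. Albumin was at 82187, 90776, 71042 and 85347, and the order of these 3 genes behind Hp changed from liver to liver.

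The next group carried ligands in plasma. Hpx, hemopexin, the carrier of free haem, was at 73145 ± 10530, and Gc, the vitamin D-binding protein, at 70654 ± 6036. Ahsg, fetuin-A, which keeps calcium phosphate in solution, was at 61999 ± 5836, Ambp, the common precursor of alpha-1-microglobulin and bikunin, at 61876 ± 4630, and Ttr, transthyretin, which carries thyroxine and the RBP4-retinol complex, at 60453. Cyp2e1, the ethanol-oxidising cytochrome P450, took place 10 at 58651 ± 5686 as the first intracellular enzyme. Rbp4, the retinol carrier, ranked 16 at 50041 ± 1266. Its levels of 50025, 49468, 48870 and 51804 had the smallest SD on the log2 scale among the 30 brightest genes, 0.036. Among the 30 brightest, COX1, a subunit of cytochrome oxidase encoded in mitochondrial DNA, and Cox4i1, a nuclear-encoded subunit of the same enzyme, were at 51398 and 36819. Mgst1, a membrane-bound glutathione transferase, was at 42880, Rup2, a urinary protein made by the male liver, at 46363, and Adh1c, an alcohol and retinol dehydrogenase, at 36067.

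**Figure D2:**
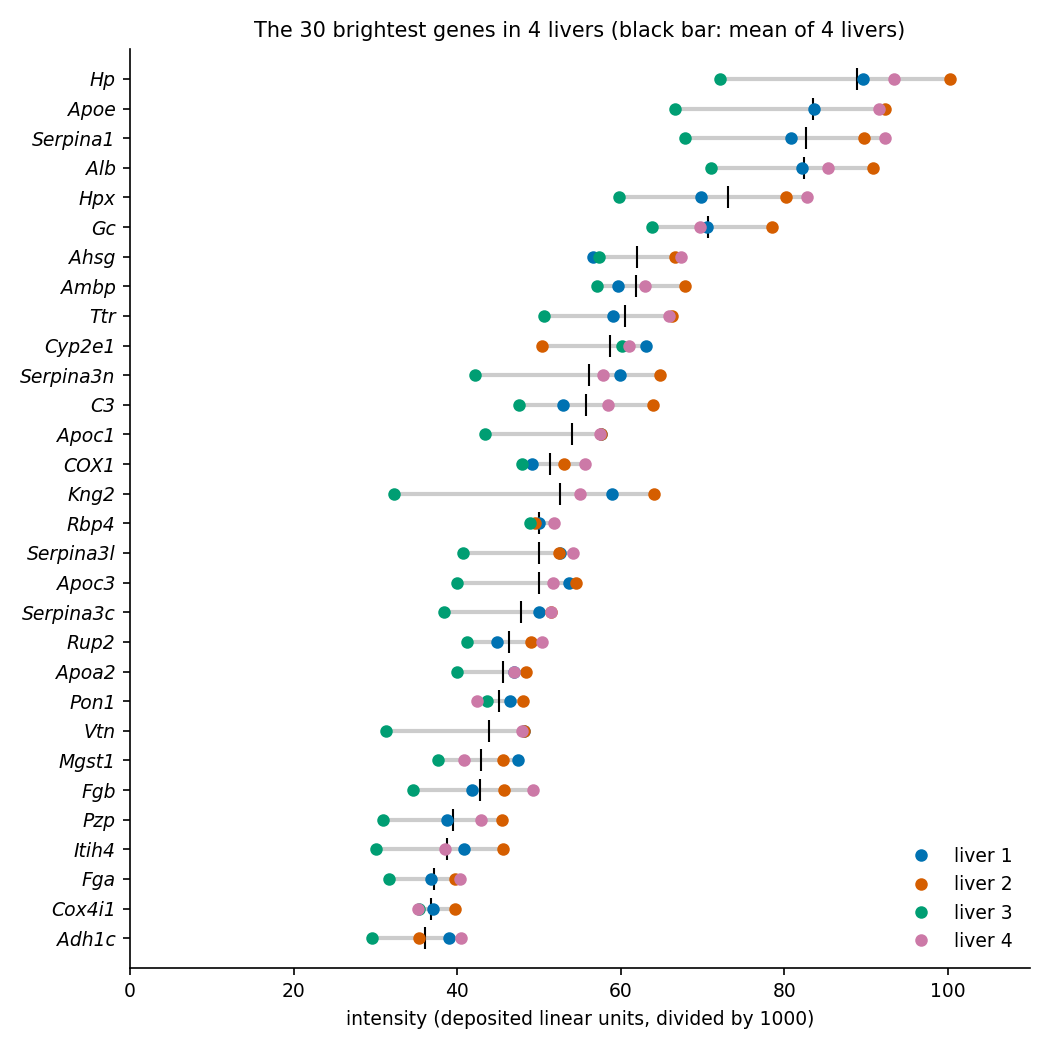
Intensity (deposited linear units, axis divided by 1000) of the 30 brightest genes in livers 1 to 4 (coloured points), with the mean of the 4 as a black bar. Hp is highest at a mean of 88819; the points of liver 3 lie lowest for 26 of the 30 genes, and those of Rbp4 lie closest together.

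The top of the ranking was shared between livers. Of the genes among the 100 brightest of any 1 liver, 83 were so in every liver and 116 in at least 1; for the 30 brightest the numbers were 25 and 34. Across the 4736 genes, which are not independent replicates, Spearman's rho between pairs of livers lay between 0.961 and 0.971. The limit at 100 fell in a smooth part of the curve, with Ugt2b35, a glucuronosyltransferase, at 16214 just inside and Rpl11, a ribosomal protein, at 16107 just outside. Of the 30 brightest genes, 26 were lowest in liver 3, and of the 100 brightest, 56; over 3124 tested genes it was 768. After quantile normalisation, which gives every array the same distribution, liver 3 was lowest for 15 of the 30 and 33 of the 100, so for part of the brightest genes the low value in liver 3 depends on the scaling. Over the 3124 tested genes liver 3 was then lowest for 868.

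Promoters of the brightest genes are shown for Alb and Cyp2e1, since both carry a short motif more common among the 100 brightest genes than among all measured genes. RefSeq promoter sequences (build GRCr8) were matched by symbol, 82 of the 100 brightest genes and 3871 of all measured genes having 1; each window ran 250 bases upstream of the annotated start. The motif GTTAAT, the core of sites bound by HNF1 factors, is in capitals in the first and TATAAA, the TATA box, in the second; each is the strip from 120 bases before the start to the base before it.

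Alb, chr14:17906980-17907099, minus strand: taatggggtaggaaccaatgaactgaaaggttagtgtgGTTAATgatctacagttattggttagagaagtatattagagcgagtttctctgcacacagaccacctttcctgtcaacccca

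Cyp2e1, chr1:205269847-205269966, plus strand: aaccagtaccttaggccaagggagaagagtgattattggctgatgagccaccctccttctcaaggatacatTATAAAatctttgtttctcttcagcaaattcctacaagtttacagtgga

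Over both strands of the 250 bases, GTTAAT occurred in 15.9% of the promoters of the 100 brightest genes, in 4.78% of those of all measured genes and in 6.46% of all 27457 promoters of the table. TATAAA occurred in 23.2%, 10.9% and 13.1% of the same sets. TTNNGCAA, a form of the site of C/EBP factors, occurred in 25.6%, 8.65% and 9.2%. CCAAT hardly differed, at 36.6%, 35.8% and 34.3%. GGGCGG, the GC box, was in 36.6% of the brightest promoters against 53.0% of all measured ones and 32.4% of the table. The median promoter of the 100 brightest genes held 4 CG dinucleotides, against 14 among all measured genes. A match is a string of letters and no evidence of binding, and measured genes differ in CG content from the whole table, with a median of 6.

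Several of the brightest genes were neighbours on the chromosome. Of 96 brightest genes placed on GRCr8, 22 (22.9%) had another of the 100 within 200 kb, against 226 of 4718 placed genes (4.79%) with a brightest gene that near. The groups were Fga, Fgb and Fgg, the 3 chains of fibrinogen; Serpina3c, Serpina3l and Serpina3n, members of the antichymotrypsin family; Apoe with Apoc1; Apoa1 with Apoc3; Ahsg with Kng2, a kininogen; Alb with Afm, afamin, another member of the albumin family; Itih3 with Itih4; Cyp3a2 with Cyp3a23-3a1; Gstm1 with Gstm2; and Selenop, the selenium carrier, with Ghr, the growth hormone receptor. Most of these are gene families, and close copies, such as those of Serpina3, Cyp3a and Gstm, can share probe signal.

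List by list, the plasma proteins sat at the top of the distribution. The median percentile of level, where 100 is the brightest of 4736 genes and the median of all genes lies midway, was 99.4 for 14 protease inhibitors, 99.0 for 17 carriers, 98.6 for 19 acute phase proteins, 98.2 for 13 apolipoproteins, 96.7 for 12 coagulation factors and 95.5 for 11 complement proteins. The fibrinogen chains Fgb, Fga and Fgg were at 42842 ± 6306, 37130 ± 3954 and 28971 ± 1301, and F2, prothrombin, at 18670 ± 3192. C3, the central complement protein, was at 55716 ± 7042 and C9, a pore-forming component, at 22935 ± 5976. All 13 apolipoprotein-list genes were above the 93rd percentile, from Apoe down to Lipc, hepatic lipase, at 6153, and Apoa4 at 5972. At the dim end of the acute phase list stood Lcn2, lipocalin 2, at 180 and Il1rn, the interleukin-1 receptor antagonist, at 139, both means below the brightest opposite-strand control of every array.

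Enzymes of oxidation and conjugation formed the next large group, with 15 of the 100 brightest genes and 8.16% of the summed intensity over 82 genes. Of 51 P450-list genes, 10 were among the 100 brightest and 13 were above the brightest opposite-strand control on no array. After Cyp2e1 came Cyp2d2 at 34819 ± 5236, Cyp2c11, the main male-specific P450 of the adult rat, at 28999 ± 1060, Cyp2c6v1 at 25227 ± 3156 and Cyp2b3 at 24241 ± 2098. Cyp2c11 was at 30011, 29533, 27569 and 28883, with little spread. Cyp2c12, its female-specific relative, was at 777, 1255, 640 and 1147, far below Cyp2c11 in each liver. The dimmest listed members were Cyp11b2, the adrenal aldosterone synthase, at 19.6 and Cyp4f5 at 12.3. Among conjugating enzymes, the glutathione transferases Mgst1, Gstm1 (24677 ± 1250) and Gstm2 (17870 ± 1936) and the sulfotransferase Sult1a1 (17318 ± 1861) led. P450, sulfotransferase and glucuronosyltransferase families have close relatives, and probe sets of 1 member may read others.

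Nitrogen and intermediary metabolism lay somewhat lower but still in the upper part of the ranking. The 9 genes of the urea list had a median percentile of 94.8, led by Glud1, glutamate dehydrogenase, at 25778 ± 520, Ass1, argininosuccinate synthase, at 20452 ± 2680, and Cps1, carbamoyl phosphate synthetase, at 19144 ± 1250. The 34 amino acid enzymes had a median of 92.6, headed by Hpd, of tyrosine breakdown, at 25107 ± 1433. In glucose metabolism Fbp1, fructose-1,6-bisphosphatase of gluconeogenesis, was the brightest at 21672 ± 747, while Pklr, the pyruvate kinase of liver, was at 1289 ± 507. Fabp1, the liver fatty acid-binding protein, was at 32614 ± 1520. Acsl1, which activates fatty acids, was at 16919 ± 418 and Fasn, fatty acid synthase, at 2973 ± 794. Slc10a1, the sodium-dependent bile acid importer, was the brightest of the bile and transport list at 12334 ± 1634.

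General cell machinery also reached the top. Of 44 ribosomal protein genes, 13 were among the 100 brightest, with a median percentile of 97.2, and Rplp0 of the ribosomal stalk was at 35774 ± 4596. The 56 respiratory chain genes of the list had a median of 90.9, with Cox4i1, Cox8a (27724 ± 1133) and Cox6a1 (16576 ± 1124) in the first 100. The list leaves out the cytochrome oxidase subunits COX1, COX3 and COX2, at 51398, 35302 and 21587, which were also in the first 100. The 20 genes of the secretory pathway had a median of 92.5, led by P4hb, protein disulfide isomerase, at 20879 ± 2438. Transcription factors were much dimmer: 38 had a median percentile of 60.4, none was among the 100 brightest and 16 exceeded the brightest opposite-strand control on all 7 arrays. The brightest was Rara, a retinoic acid receptor, at 4660 ± 564, followed by Nr2f6 at 3302 ± 338 and Cebpb at 3063 ± 450. Hnf4a, a master regulator of hepatocyte genes, was at 1664 ± 181.

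The labelled tissue was checked against cell type markers. The 17 hepatocyte markers had a median percentile of 99.0, all exceeded the brightest opposite-strand control on all 7 arrays, and their summed intensity was 522824 to 619306. Of 12 macrophage markers, 10 exceeded it on all 7 arrays, with a summed intensity of 19175 to 21680; Ctss, cathepsin S, was at 3719 ± 641 and C1qb at 3338 ± 718, while Csf1r was at 99.1 and Itgam at 42.8. Of 19 stellate and matrix markers 10 did so, but the brightest, Fn1 at 25796 ± 1706 and Sparc at 13637 ± 2593, are also made by other cells; Des, desmin, which marks rat stellate cells, was at 44.7 ± 15.6 and Thy1 at 26.8. The 13 endothelial and 11 bile duct markers had medians of 46.7 and 49.8, near that of all genes. The 23 lymphoid markers had a median of 41.5, with Cd74 at 4485 ± 945 the brightest and Cd3g at 30.3. Among 9 red cell genes, Hbb, beta globin, was at 16191 ± 1271 and ranked 99. Signal also appeared where none is usual in liver: of 25 pancreas markers 18 exceeded the control on no array, yet Ins2 and Ins1, the insulin genes, were at 1347 ± 127.6 and 1309 ± 98.7 and Amy2a3, pancreatic amylase, at 1337 ± 148, on a par with Pklr. The leptin gene Lep was at 1989 ± 202. Levels of this size on this chip were therefore also found for genes not thought to be active in liver, and the source of that signal was not tested.

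**Figure D3:**
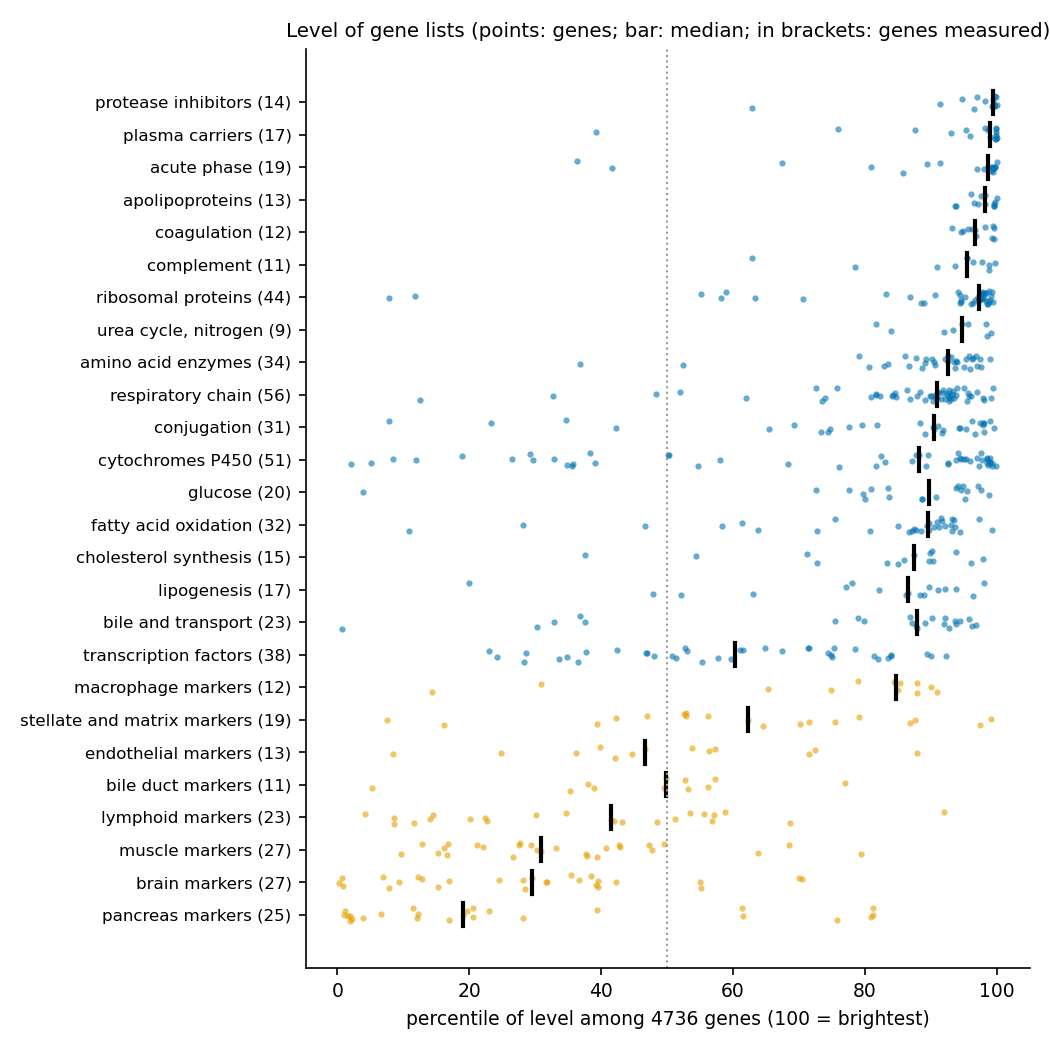
Percentile of level among 4736 genes for the members of 26 lists (points, blue for functions and orange for cell or tissue markers), with the median of each list as a bar and the number measured in brackets. Plasma protein lists have medians from 95.5 to 99.4, transcription factors 60.4, and brain and pancreas markers 29.6 and 19.1.

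Probe sets of the same gene often disagreed. For 1565 genes with at least 2 probe sets, the median distance between the brightest and the dimmest was 1.34 on the log2 scale, and for 258 (16.5%) it exceeded 3. The widest distances were in genes of the brightest class: Cps1 (9.04), Gpx1, glutathione peroxidase (8.88), Fgb (8.79), Ahsg (8.51) and Alb (8.02). Albumin had probe sets at 82338, 77630, 67376 and 304, and fibrinogen Fgb had 42842 and 64.6. The brightest probe set was used throughout, so levels lean to the upper side; using the median of a gene's probe sets, 77 of the 100 brightest genes were shared.

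Above the dimmest genes, the spread between livers shrank as level rose. On the scale log2(intensity + 32), the median SD over 4 livers was 0.27 for genes below the 20th percentile of level, 0.363 in the 20th to 40th, 0.247 in the 40th to 60th, 0.19 in the 60th to 80th, 0.181 in the 80th to 95th and 0.155 in the top 2 percent. Without liver 3 the last value was 0.1, that of the 20th to 40th percentile 0.302 and that of the 80th to 95th 0.158; for Hp the SD was 0.204 with liver 3 and 0.083 without it. An SD of 0.155 corresponds to a factor of 1.114 and one of 0.363 to 1.286. Arrays of the same liver, where there were 2, differed less among bright genes as well. The mean shift of each gene between the 2 RNA amounts was first taken off, so a shift shared by the pairs is not counted. The median absolute difference that remained was 0.45 in the 20th to 40th percentile and 0.079 in the top 2 percent. Among the 1894 genes at or above the 60th percentile the median SD was 0.183, and 68 (3.59%) exceeded 0.5 and 8 exceeded 1. The smallest values were those of Plod1, a collagen-modifying lysyl hydroxylase, at 892, 884, 890 and 876, Cltb, a clathrin light chain, Dynlrb1, a dynein light chain, Arf5, a small GTPase, and Alad, of haem synthesis, with SDs of 0.012 to 0.021. For Plod1, however, arrays of 1 liver differed more than the livers did (954.6 and 829.1 in liver 1), so its agreement between livers is closer than single arrays allow.

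**Figure D4:**
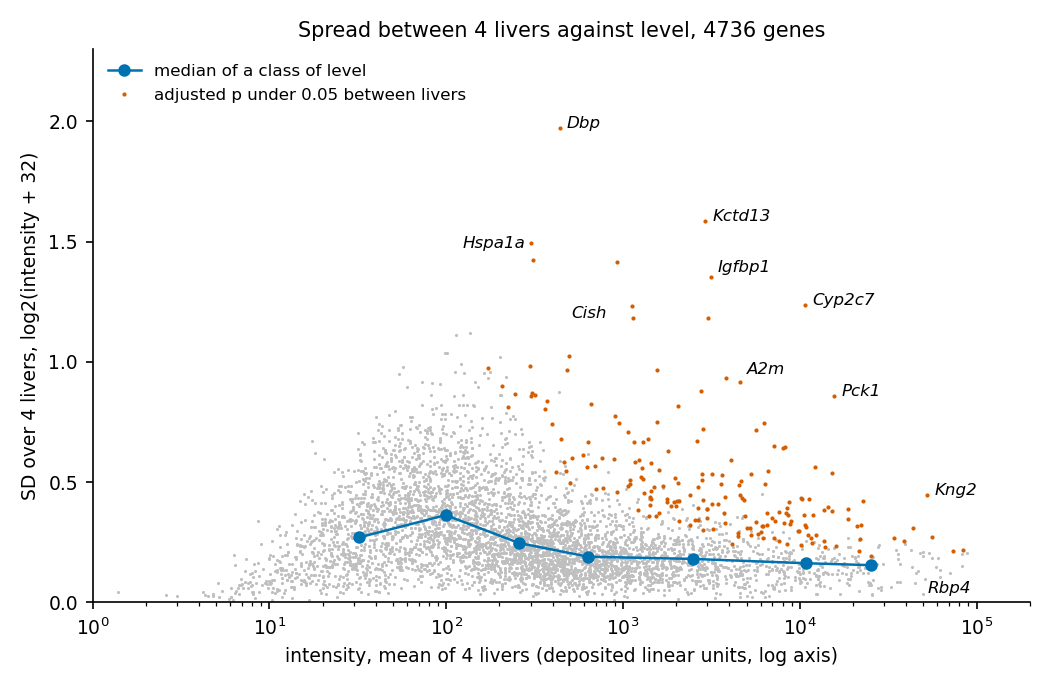
SD over 4 livers on the scale log2(intensity + 32) against mean intensity (log axis) for 4736 genes; blue points are medians of 7 classes of level and orange points are genes with an adjusted p under 0.05 between livers. The median rises from 0.27 in the dimmest class to 0.363 in the next and then falls to 0.155 in the brightest, while Dbp, Kctd13, Igfbp1, Cyp2c7 and Pck1 lie far above it.

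Differences between livers were tested on all 5244 probe sets at or above the 40th percentile of level, with limma's moderated F-test over the 4 liver numbers and the RNA amount as a covariate. At an adjusted p (Benjamini-Hochberg) under 0.05, 359 probe sets (6.85%) differed, and 1178 did at an unadjusted p under 0.05. With 1 array left out the count lay between 144, without the 2 µg array of liver 1, and 574, without the 2 µg array of liver 4; with no filter on level it was 152. Taken as 1 probe set per gene, 187 of 3124 genes (5.99%) differed. The share was 14.8% of 947 genes at or above the 80th percentile of level and 2.16% of 2177 below it. The fold between the highest and the lowest liver, from the fit and on the scale with 32 added, had a median of 1.95 and was at least 1.35 in every gene called; over all tested genes the median was 1.4. Where the lowest liver lay below the brightest opposite-strand control of its own array, as for Dbp, Hspa1a, Serpina7, Onecut1 and Pbsn, the fold depends on the added 32 and is not given. The fit has 2 residual degrees of freedom, which come only from the same-numbered arrays of livers 1, 2 and 4. These p-values thus weigh livers against the disagreement of repeat arrays and not against a spread between animals. The fit borrows 6.98 degrees of freedom from other probe sets, with a spread that depends on level. Without that dependence 16 probe sets and 7 of the 187 genes passed. Those 7 were Cyp2c7, Kctd13, Igfbp1, Hsd17b2, Serpina7, Cish and Dbp, and they passed in every alternative in which they were tested. Without liver 3, 160 of the 187 genes passed.

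Genes with a sex pattern or a known dependence on growth hormone ranged widely. Of 14 tested genes known to be higher in male rat liver 8 (57.1%) differed, and of 11 higher in female liver 5 (45.5%), against 14.8% of bright genes in general; protease inhibitors (7 of 14) and apolipoproteins (6 of 13) had shares of like size, and no test compared the lists. Cyp2c7, a female-predominant P450 that oxidises retinoids, was at 2649, 9890, 8666 and 21346, a 7.98-fold range (limma adjusted p = 7.65e-06). Liver 1 was lowest and liver 4 highest, and the arrays of each liver agreed closely, as with 2593 and 2705 in liver 1 and 21194 and 21498 in liver 4. Cish, a feedback inhibitor that growth hormone induces through STAT5, was at 942, 318, 771 and 2526 (limma adjusted p = 0.000147), lowest in liver 2 and highest in liver 4. Igfals, the acid-labile subunit that holds IGF-1 in plasma and depends on growth hormone, was at 2490, 6108, 6353 and 7616 (limma adjusted p = 0.000206), with liver 1 well below the other 3. Onecut1, the hepatic factor HNF6, was at 184, 594, 241 and 964, with livers 2 and 4 high. The female-pattern genes had no common order: of the 11 tested, 4 were highest in liver 4 and 5 in liver 3. Besides Cyp2c7, the sulfotransferases Sult2a1 and Sult2a2 were highest in liver 4 by their brightest probe sets. These were at 3124, 3434, 5085 and 6506 and at 724, 794, 1342 and 1413. Sult2a1 has 4 probe sets and Sult2a2 has 3, and the order of livers in the others is not given here. Cyp2a1, at 10628, 7306, 11840 and 9773, and Fmo1, a flavin monooxygenase, at 2708, 3498, 5792 and 2601, were highest in liver 3, and Fmo1 did not pass without that liver.

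Male-predominant genes were often lowest in liver 4. It was the lowest liver for 8 of the 14 male-pattern genes, and for 9 after quantile normalisation, against 1068 and 835 of all 3124 tested genes. Cyp3a18 was at 11537, 6373, 6754 and 3817 (3-fold range), Cyp2c13 at 26874, 25729, 19348 and 16918, Cyp2a2 at 9791, 8634, 8483 and 5799, and Car3, the muscle-type carbonic anhydrase abundant in male liver, at 14387, 11686, 16215 and 6697. In each the value of liver 4 was below the other 3. Liver 3 was lowest for 4 of the 14. Obp3, an odorant-binding urinary protein, was one of these, with 8810, 14206, 8030 and 13878, high in livers 2 and 4. Cyp2c22, which also passed, was another, at 13483, 7878, 4756 and 5984 (2.8-fold range, limma adjusted p = 0.000638). Cyp2c11 and Rup2, the 2 brightest of the list, did not pass, with fitted ranges of 1.04-fold and 1.19-fold (limma adjusted p = 0.953 and 0.273). Hsd17b2, which inactivates oestradiol and testosterone, was at 813, 6189, 2773 and 2410 (limma adjusted p = 5.16e-05), lowest in liver 1.

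Single genes that respond to insulin and glucagon ranged widely, while most glucose genes did not pass. Igfbp1, an IGF-binding protein that insulin represses, was at 5077, 3959, 2888 and 603, an 8.07-fold range (limma adjusted p = 4.89e-05), with liver 4 far below the rest. Pck1, the cytosolic PEPCK of gluconeogenesis, was at 21383, 23682, 10739 and 6741 (3.51-fold, limma adjusted p = 5.16e-05), high in livers 1 and 2. Pklr, of glycolysis, was at 843, 905, 1904 and 1503, and Fasn at 2393, 2206, 3820 and 3472, both higher in livers 3 and 4 than in livers 1 and 2. Slc37a4, the glucose-6-phosphate transporter, was at 5495, 9202, 9631 and 10405. Of 19 tested glucose genes 3 passed (15.8%), close to the 14.8% of bright genes, and of 16 lipogenic genes 4 (25.0%). The other 3 lipogenic genes that passed did not follow the order of Fasn: Me1, malic enzyme, was at 1554, 714, 1272 and 848, Gpam, of triglyceride synthesis, at 1294, 458, 1337 and 1182, and Elovl5, an elongase, at 7629, 6402, 6200 and 4491. Fbp1, at 21569, 22584, 20764 and 21772, did not pass (limma adjusted p = 0.857). Serpina7, thyroxine-binding globulin, was at 2122, 1110, 1038 and 251 (limma adjusted p = 0.000144), again lowest in liver 4.

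The promoters of Pck1 and Igfbp1 are printed because these genes ranged widely between livers and each holds a known kind of hormone-response or hepatic motif. The strips have the same limits as above, in GRCr8 from RefSeq, with TTACGTCA, a cyclic AMP response element, in capitals for Pck1, and ATTAAC, the reverse complement of GTTAAT, for Igfbp1.

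Pck1, chr3:182348452-182348571, plus strand: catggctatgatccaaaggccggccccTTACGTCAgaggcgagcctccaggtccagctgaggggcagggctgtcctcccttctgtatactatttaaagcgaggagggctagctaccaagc

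Igfbp1, chr14:86261157-86261276, plus strand: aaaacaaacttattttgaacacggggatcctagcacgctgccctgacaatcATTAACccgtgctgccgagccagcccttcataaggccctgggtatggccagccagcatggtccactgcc

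TTACGTCA began 93 bases before the start of Pck1 and was found on either strand in 0.819% of all promoters of the table and 1.03% of those of measured genes. ATTAAC began 69 bases before the start of Igfbp1. Of the promoters of the genes that differed between livers, 151 were matched; 7.28% held GTTAAT and 15.9% TATAAA, against 15.9% and 23.2% among the 100 brightest genes.

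**Figure D5:**
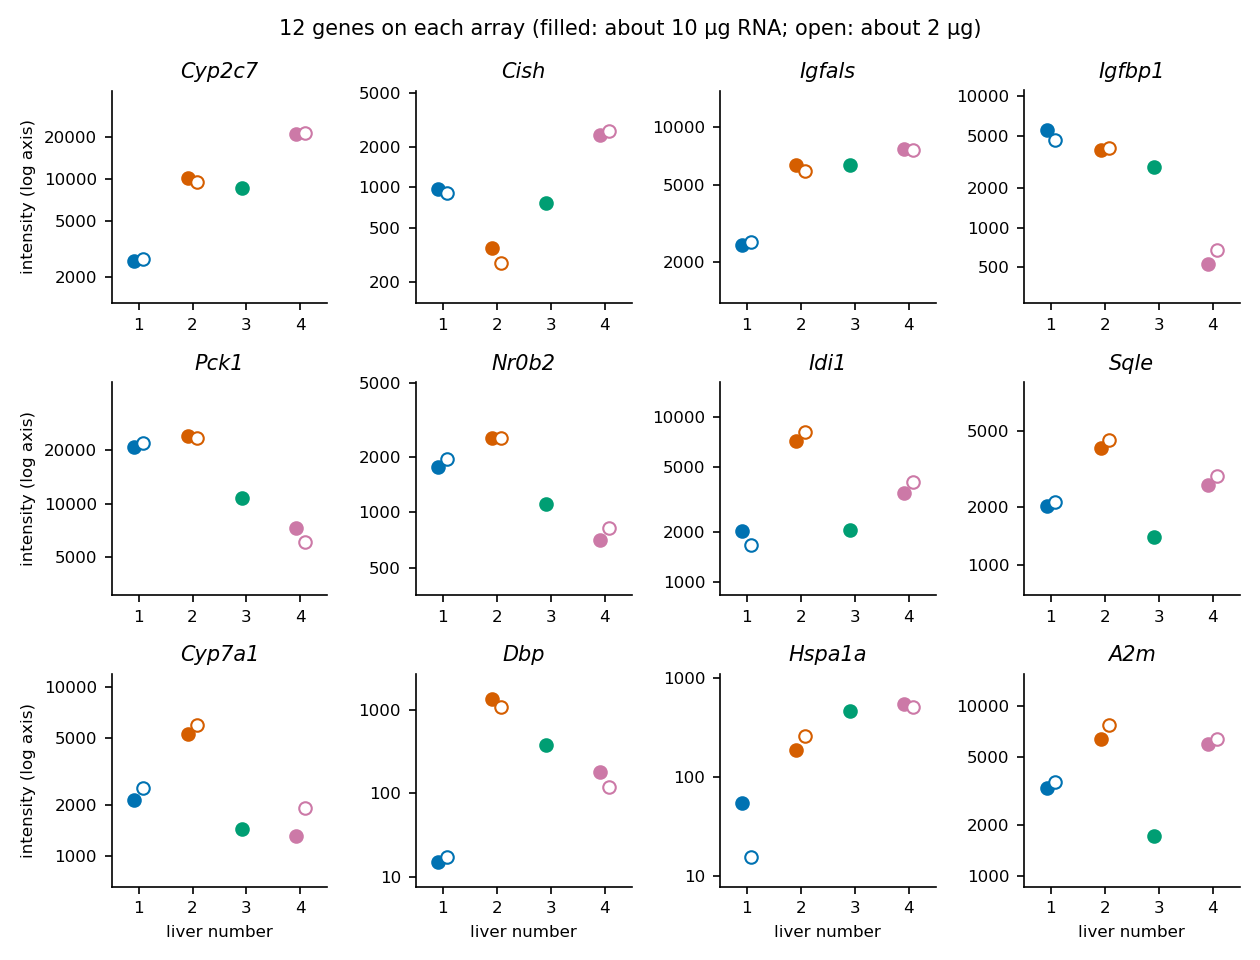
Intensity (log axis) of 12 genes on each array, by liver number; filled points are targets from about 10 µg of RNA and open points from about 2 µg, and liver 3 has no open point. The 2 points of a liver lie close together in most panels, while livers range from 2649 to 21346 for Cyp2c7 and from 16.2 to 1210 for Dbp.

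Several sterol synthesis genes were highest in liver 2. Of 15 tested members 6 passed, against 14.8% of bright genes. Liver 2 was highest for 8 of the 15 and liver 4 for 5, also after quantile normalisation. Over all 3124 tested genes these numbers were 866 and 629, and 761 and 797 after quantile normalisation. Idi1, isopentenyl diphosphate isomerase, was at 1848, 7666, 2078 and 3752 (4.11-fold, limma adjusted p = 0.000272). Sqle, squalene epoxidase, was at 2075, 4281, 1391 and 2750, Cyp51, lanosterol demethylase, at 6636, 10388, 4380 and 5027, and Acat2, an acetoacetyl-CoA thiolase, at 1752, 3077, 1273 and 1819. In these 4 genes liver 2 was highest by the brightest probe set. Other probe sets of Cyp51, at 2697, 1891, 1834 and 2058 and at 615, 601, 333 and 506, were highest in liver 1 and did not pass. The rest of its probe sets were highest in liver 2, and of these only the one at 1490, 2141, 851 and 1092 passed. Insig1, which holds the sterol-regulated factor SREBP in the endoplasmic reticulum, did not follow, with 3035, 2603, 3132 and 5038. Cyp7a1, the rate-limiting enzyme of bile acid synthesis, was also highest in liver 2, at 2356, 5650, 1456 and 1628 (3.48-fold, limma adjusted p = 0.000341). Nr0b2, SHP, a repressor of Cyp7a1, was at 1845, 2525, 1103 and 763, likewise highest in liver 2 (limma adjusted p = 0.000885), and Alas1, the first enzyme of haem synthesis, at 2785, 8526, 5489 and 8216. Another probe set of Alas1 gave the same order, with 1487, 4882, 2879 and 4256. Of 21 tested bile and transport genes 6 (28.6%) passed; of these Abcb11, the bile salt export pump, was at 3427, 3045, 2358 and 1860.

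A clock output gene ranged widely. Dbp, a D-box-binding factor whose transcript cycles strongly over the day, was at 16.2, 1210, 377 and 149 (limma adjusted p = 0.000167), and its other probe set gave the same order of livers, at 39.4, 303, 123 and 46.7. The arrays of livers 1 and 4 lay below the brightest opposite-strand control for Dbp, so the values of these livers have no firm size. Of the other 7 tested clock genes none passed. Bmal1, which peaks opposite to Dbp, was at 301, 48.4, 326 and 132, and Per2 at 126, 331, 256 and 379. The arrays of livers 2 and 4 lay below that control for Bmal1, as did all 10 µg arrays for Per2. For Bmal1 the arrays of liver 1 also disagreed, at 471.4 and 130.8, so the order of livers is not firm for these genes. Liver 1 was lowest for 6 of the 8. Only 2 of the 9 measured clock genes exceeded the control on all 7 arrays. The labels used here give no time of day for dissection.

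Of 22 tested immediate early and stress genes 9 (40.9%) passed, against 5.99% of all genes and 14.8% of bright ones. Hspa1a, an inducible HSP70, was at 35.5, 223, 459 and 525 (limma adjusted p = 0.00428), lowest in liver 1, where it lay below the brightest opposite-strand control, as it did in liver 2. Dusp1, a phosphatase of MAP kinases, was at 1152, 661, 826 and 1988, highest in liver 4, while Jun was at 695, 254, 275 and 570, and Egr1 at 782, 362, 498 and 366, both highest in liver 1. These genes thus had no common order across livers by their brightest probe sets. Another probe set of Dusp1, at 558, 358, 350 and 476, was highest in liver 1. For Egr1, another at 247, 381, 328 and 387 was highest in liver 4. The remaining probe sets of both genes kept the highest liver given above, and none of these other probe sets passed. Cebpa, a hepatocyte transcription factor, was at 810, 1277, 1460 and 2224, and its relative Cebpb at 3033, 2869, 2654 and 3697 did not pass (limma adjusted p = 0.157).

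Acute phase genes and protease inhibitors differed chiefly through liver 3. Of 19 acute phase genes 7 (36.8%) passed and of 14 inhibitors 7, with several genes in both lists, against 14.8% of bright genes, and liver 3 was lowest for 14 of the 19 and 11 of the 14. Kng2, a kininogen, was at 58872, 64007, 32328 and 54985 (1.94-fold, limma adjusted p = 0.00291). Itih3 and Itih4, heavy chains of the inter-alpha inhibitor family, were at 36203, 39044, 25606 and 35216 and at 40888, 45638, 30009 and 38458, and Lbp, the lipopolysaccharide-binding protein, at 1794, 1809, 638 and 1276. Without liver 3, 2 of the 7 acute phase genes and 2 of the 7 inhibitors still passed. Kng2, Itih3, Itih4 and Lbp did not pass without it, nor did Serpina3n and Serping1. After quantile normalisation liver 3 was lowest for 12 of the 19 and 9 of the 14. A2m, alpha-2-macroglobulin, a strongly inducible acute phase protein of the rat, was at 3419, 7052, 1722 and 6170 (3.82-fold, limma adjusted p = 0.000251) and passed also without liver 3. Of its 4 other tested probe sets 1 passed, with 1305, 2842, 817 and 2773. Cd14, a macrophage and hepatocyte receptor for lipopolysaccharide, went the other way, at 2162, 3015, 4750 and 1439, highest in liver 3. The 12 macrophage markers summed to 19175 to 21680 over the arrays, and 8 of the 10 tested were lowest in liver 3; their part in the acute phase values was not tested.

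Other lists held calls across several livers. Of 43 P450-list genes 15 (34.9%, against 14.8% of bright genes) passed, all of them also without liver 3. Liver 4 was lowest for 18 of the 43, against 1068 of all 3124 tested genes, and no test compared these shares. Cyp2c22 was at 13483, 7878, 4756 and 5984, and Cyp2b2, the phenobarbital-inducible P450, at 15754, 18246, 18604 and 8386. Of 34 amino acid enzymes 11 passed, such as Bhmt, of the methionine cycle, at 4426, 6334, 7941 and 7320, and Cth, cystathionine gamma-lyase, at 7574, 6057, 7887 and 3755. Aldh1a1, which oxidises retinal to retinoic acid, was at 10832, 6230, 11590 and 4552 (limma adjusted p = 0.000289). Of 13 apolipoprotein-list genes 6 passed, among them Apoa1 at 20215, 23404, 12469 and 19335, which did not pass without liver 3, and Apom at 13110, 12392, 7579 and 7571. The test was passed by 2 of 54 respiratory chain genes (3.7%), 4 of 42 ribosomal protein genes (9.52%) and 1 of 20 secretory pathway genes (5.0%), against 5.99% of all genes and 14.8% of bright ones. Of 13 commonly used reference transcripts 0 passed, with B2m at 17975, 19334, 18720 and 20168 and Actb at 12529, 12432, 9835 and 11208. Of the markers tested, 11 endothelial, 10 bile duct, 7 red cell, 11 brain and 7 pancreas, 0 passed as well. These marker lists are short, and only 2.16% of genes below the 80th percentile of level passed, so 0 does not show that the markers were stable. Kctd13 and Pbsn, probasin, had the largest SDs among bright genes, 1.585 and 1.414, with Kctd13 at 8838, 1068, 892 and 820 and Pbsn at 2420, 321, 718 and 253. The 2 other probe sets of Kctd13 did not pass (limma adjusted p = 0.55 and 0.546), and another probe set of Pbsn gave 2173, 358, 575 and 212.

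The amount of starting RNA gave few calls. In limma's test of 2 µg against 10 µg without a block, 0 of 5244 probe sets passed, 155 had an unadjusted p under 0.05, the smallest adjusted p was 0.24 and the median absolute difference was 0.13 on the log2 scale. With the liver number as a block, 375 had an unadjusted p under 0.05 and 1 passed (0.0191%). It belonged to Ptms, parathymosin, which was lower at 2 µg, with a difference of -1.62 (SE 0.126) on the log2 scale and an adjusted p of 0.00227 in limma. Ptms was at 2534, 2176, 819 and 1788 on the 10 µg arrays and at 788, 725 and 536 on the 2 µg arrays, and the 2 sets of values do not overlap.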

How the data were processed

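Liver RNA was measured on 7 1-colour Affymetrix arrays. The authors deposited probe set intensity values in linear units, 1 table for all arrays; the sources used here do not name the program or settings behind them. Judged by the values, each array had already been scaled to a trimmed mean near 1002 (2% taken off each end), and no further scaling was applied. All 7 columns matched a label by title. The number of arrays limits the precision; detection calls were not used here.

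The 59 control probe sets were left out, and values were taken as log2(intensity + 32), so differences of dim genes are understated. Arrays with the same number were averaged on that scale for levels, ranks and SDs; intensities printed by liver are means of the arrays. Gene names came from the platform annotation, of which 6985 probe sets matched GRCr8 symbols; probe sets with several symbols were left unnamed, also where they were among the brightest. A gene was represented by its brightest probe set. Tests used limma 3.58.1 in R 4.3.3 (lmFit and eBayes with trend, Benjamini-Hochberg adjustment over all 5244 probe sets at or above the 40th percentile of mean level), as an F-test over liver numbers with RNA amount as a covariate, and a test of RNA amount without a block. Tables were made with Python 3.11.15 and pandas 2.3.3. The fits were tested on simulated data.

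Same-numbered arrays deviated together from their group means (correlations 0.349, 0.333 and 0.387, against -0.26 to -0.099 for different numbers), so the numbers were taken to pair arrays, from this check and the shared numbers in the titles. Genes were named by rule: the 30 brightest, the brightest and dimmest of each list, the most and least variable, the smallest p-values, and marker list members; chromosomal neighbours and a few others (Aldh1a1, Cyp2a1, Fmo1, Me1, Gpam, Elovl5, Sult2a2, Cyp2c12, Obp3 and Abcb11 among them) were named after their values were seen. The members and lists were chosen with earlier results of these data known. Alternatives covered the pseudocount (a lower and a higher one), scaling, filter, trend, covariate, block, probe set rule and each array left out.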

Additional observations from a re-analysis of the deposited data

Results flagged for a closer look

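For 10 of 143 named genes, 1 of the 4 livers lay far from the other 3, by a gap above 0.829 of the whole range. This is Dixon's 95% limit for 4 values, which chance exceeds in about 1 in 20 independent groups. Since the named genes share livers and were partly chosen by their values, that rate cannot be applied to these 10. Liver 3 was the low one for 4 of them, all bright plasma proteins: Apoc1 (gap 0.993 of the range; 57602, 57573, 43339 and 57511 in livers 1 to 4), Serpina3c (0.891), Serpina3l (0.891) and F2 (0.858; 21052, 19860, 13961 and 19809). Its single array also had the lowest share of intensity in the brightest probe sets, and the part of that in these values was not tested. Liver 1 was the low one for Apoa4, an apolipoprotein of the gut and liver (0.911; 4912, 6402, 6252 and 6324), and the high one for Kctd13 (0.903) and Cyp3a23-3a1, an inducible P450 (0.835; 28932, 19547, 18095 and 18232). Liver 4 was the low one for Gstm2 (0.841; 18992, 18399, 19087 and 15002) and Amy2a3 (0.84; 1430, 1392, 1409 and 1116). Liver 2 was the low one for Gpam, of triglyceride synthesis (0.879; 1294, 458, 1337 and 1182).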

How the results depend on the processing

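The count of probe sets differing between livers, 359, was 152 with no filter, 16 with no trend, and 144 to 574 with each array left out in turn, lowest without the 2 µg array of liver 1 and highest without the 2 µg array of liver 4; it was 325 to 487 under the other scalings, pseudocounts and the stricter filter, 269 without the covariate and 382 without liver 3. For RNA amount, the count of 0 became 1 with no trend and 1 with the replicate block, and stayed 0 in each fit with an array left out. The block on the liver number pairs the arrays and changed no other call. The median SD over the 4 values, 0.219, was 0.236 with pseudocount 1, 0.183 with the higher pseudocount, 0.245 with no filter, 0.193 with the filter at the 60th percentile, 0.251 on the 10 µg arrays alone and 0.198 to 0.239 with each array left out. The 100 brightest of all probe sets held 31.0% of their sum, against 40.46% for genes, since more probe sets are in that sum; with each array left out the gene value was 40.28% to 41.23%. Of the 100 brightest genes, 77 to 100 were shared under every alternative tried. Of 62 named genes that differed between livers, 55 lost the call with no trend, 22 with no filter, 22 without the 2 µg array of liver 1, 12 without the 10 µg array of liver 2, 10 without liver 3 and 6 after quantile normalisation; the cause was not tested beyond what each setting leaves out.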

Other observations

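Probe sets without a single gene symbol reached the top of the signal as well. Of the 8740 probe sets, 308 carry several symbols and 1426 none, and of the 359 that differed between livers 48 carried several and 50 none; they are not named here. Of the 187 genes that differed, liver 1 was the highest for 63 and the lowest for 43, liver 2 for 47 and 35, liver 3 for 27 and 46, and liver 4 for 50 and 63. Ribosomal protein genes were brightest in liver 4 for 26 of 42 and dimmest in liver 1 for 18, and 25 and 20 after quantile normalisation. Over all 3124 tested genes these numbers were 629 and 747, and 797 and 778 after quantile normalisation. Of the 42, only 4 passed the test: Rpl7a, Rpl11, Rpl6 and Rps10. Rpl7a was at 17816, 19139, 24403 and 26012 in livers 1 to 4. The other probe sets of Rpl11, at 12191, 12374, 12276 and 11527, and of Rpl6, at 10434, 9489, 12102 and 11697, did not pass (limma adjusted p = 0.792 and 0.363).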
